A study of Mus musculus with 2 samples.

Results

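The genes described here are 7 genes of the motors that carry cargo along axons: the kinesin-1 heavy chain genes Kif5a, Kif5b and Kif5c, the kinesin-3 genes Kif1a and Kif1b, the cytoplasmic dynein heavy chain gene Dync1h1, and Dctn1, which encodes the largest subunit of the dynein cofactor dynactin. They were chosen by Ensembl identifier as a functional group, and all 7 were present among the 12530 mouse genes listed in both libraries. The data are ribosome profiling libraries of mouse spinal cord, in which fragments protected by ribosomes from RNase I are sequenced and counted per gene. There was 1 library from animals heterozygous for the Gars C201R allele (HET, genotype GarsC201R/+) and 1 library from wild-type animals (WT), each made from the pooled lysates of 3 animals. Gars encodes glycyl-tRNA synthetase, and the series asked where ribosomes sit over glycine codons. The labels used here state no age, sex or strain.

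The gene reads summed to 3491159 in the HET library and to 7770935 in the WT library. With 1 library per genotype there was no replicate of either, so no test between genotypes was made and no p-value is given. All intervals are 95% intervals and cover the error of counting reads in these 2 libraries, with no part for differences among animals or pools. The tables hold 1 total per gene, so the position of ribosomes on a gene was not analysed here. The series has no RNA library beside them, so mRNA amount and ribosome load cannot be told apart, nor can fewer cells of a type and fewer reads per cell. The other identifiers in the tables were not paired with symbols here, so Gars, markers of spinal cord cell types and the other subunits of these motors were not analysed here, and the tissue was not checked against its markers.

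Axonal transport runs on microtubules whose growing ends point away from the cell body. Kinesins walk towards those ends and carry vesicles, mitochondria, RNA granules and neurofilaments outwards, while dynein, held to its cargo and switched on by dynactin and adaptor proteins, carries endosomes and signalling complexes back to the cell body. Motor neurons of the spinal cord have some of the longest axons of the body, and human mutations in KIF5A, KIF1A, DYNC1H1 and DCTN1 are known causes of disorders of motor neurons and peripheral nerve.

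Kif5a had the lowest ratio of HET over WT among the motor genes, while Kif1a and Dctn1 had almost the same level in both libraries. Kif5c, Kif1b, Kif5b and Dync1h1 lay between, lower in the HET library by less than 1.5-fold. Libraries were scaled with TMM, which sets the bulk of the genes equal. A gene was then called higher or lower if 3 conditions held: the reads of both libraries summed to 100 or more, the ratio reached 1.5-fold, and equal levels lay outside the interval. By this rule 1 of the 7 genes, Kif5a, was lower in the HET library and 0 were higher. Of the 9726 genes with enough reads, 11.2% were lower and 8.14% were higher by the same rule, so the count for the motor genes was not set apart from that of all genes. All 7 genes belonged to the highest of 10 groups of genes ordered by reads, which holds the 973 genes with 2152 or more reads, and in that group 6.58% were lower and 1.13% were higher.

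**Figure D1:**
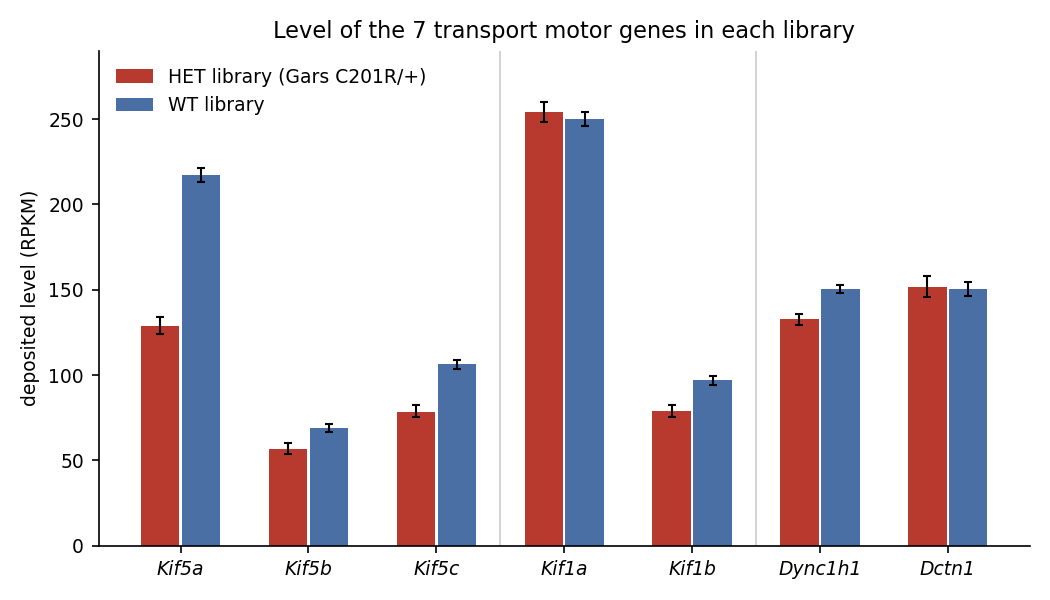
Deposited level in RPKM (vertical axis) of each motor gene in the HET library (red) and the WT library (blue), 1 library each, with 95% Poisson intervals of the read number. Kif5a reached 129 RPKM in the HET library and 217 RPKM in the WT library, while the bars of Kif1a and of Dctn1 are nearly equal in height.

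Kif5a encodes the neuronal heavy chain of kinesin-1, the motor for outward transport of many cargoes including neurofilaments. The gene (ENSMUSG00000074657) lies on chromosome 10 from 127225695 to 127266348 in RefSeq's GRCm38.p6 annotation. It had 2858 reads in the HET library (Poisson interval 2754 to 2965) and 10662 reads in the WT library (10461 to 10866). On the per-length scale that is 129 RPKM in the HET library (124 to 134) and 217 RPKM in the WT library (213 to 222). The HET library was the lower one by far more than counting error. The log2 ratio of HET over WT was -0.80 (-0.86 to -0.74), which is 57.5% of the WT level after scaling.

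Kif5b encodes the kinesin-1 heavy chain that is made in most cell types, neurons and glia included. The gene (ENSMUSG00000006740) lies on chromosome 18 from 6201005 to 6241524. It had 1207 reads in the HET library (1140 to 1277) and 3233 reads in the WT library (3123 to 3346), or 56.8 RPKM in HET (53.7 to 60.1) and 68.8 RPKM in WT (66.5 to 71.2). It was lower in the HET library beyond counting error, but by a log2 ratio of -0.32 (-0.42 to -0.22), short of the 1.5-fold limit. Kif5b had the fewest reads and the lowest RPKM of the 7 genes in both libraries. Levels per coding length were not run, so comparisons of RPKM between genes hold for the lengths behind the RPKM values only.

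Kif5c encodes the third kinesin-1 heavy chain, which like Kif5a is enriched in neurons. The gene (ENSMUSG00000026764) lies on chromosome 2 from 49619286 to 49774778. It had 1897 reads in the HET library (1813 to 1984) and 5671 reads in the WT library (5524 to 5821), or 78.6 RPKM in HET (75.1 to 82.2) and 106 RPKM in WT (103 to 109). Its log2 ratio of -0.48 (-0.55 to -0.40) was the second lowest of the 7 and did not reach the 1.5-fold limit. The 3 kinesin-1 genes are paralogs with similar coding sequences. The sources do not say how reads matching more than 1 of them were counted, so reads could have been split or lost among them.

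The 3 heavy chain genes together had 264 RPKM in the HET library and 392 RPKM in the WT library. Their summed reads gave a log2 ratio of -0.61 (-0.66 to -0.57). Kif5a made up 48.8% of the summed kinesin-1 RPKM in the HET library and 55.4% in the WT library. Kif5b made up 21.5% in the HET library and 17.5% in the WT library, and Kif5c 29.7% in HET and 27.1% in WT. In both libraries Kif5a was therefore the largest of the 3 and Kif5b the smallest. The share of Kif5a among the kinesin-1 reads, without the length scaling, was 47.9% in the HET library (exact binomial interval 46.7 to 49.2) and 54.5% in the WT library (53.8 to 55.2), and these intervals did not overlap. Such shares do not depend on how the 2 libraries are scaled to each other. Their intervals cover counting error only, and genes of the highest read group spread more widely than that. The lack of overlap therefore does not by itself set Kif5a apart.

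**Figure D2:**
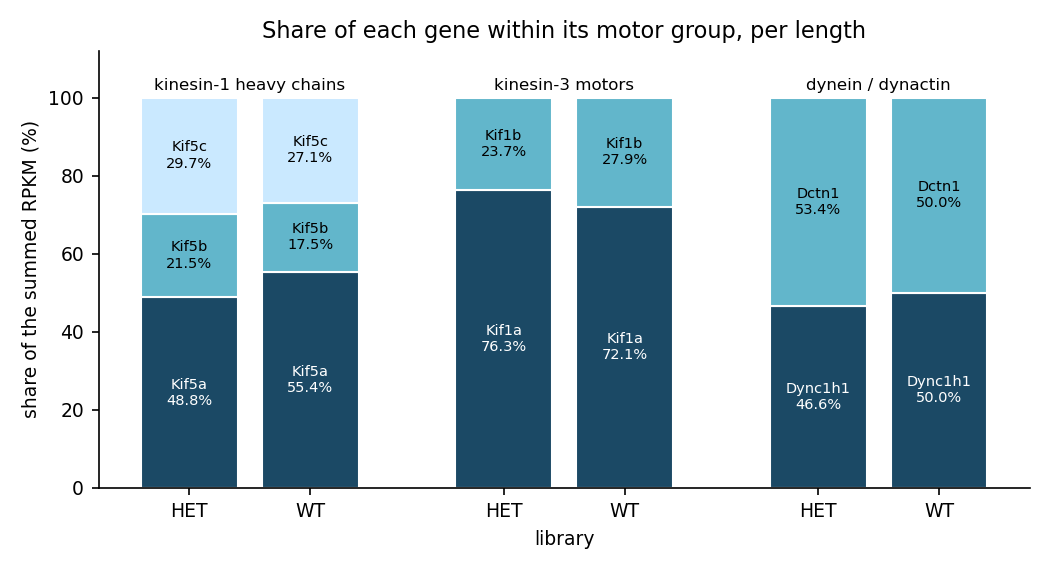
Share of each gene (vertical axis, %) in the summed RPKM of its motor group, with the HET library left of the WT library in each group, 1 library each. Kif5a took 48.8% of kinesin-1 in the HET library and 55.4% in the WT library, Kif1a 76.3% of its group in HET and 72.1% in WT, and Dync1h1 46.6% of its group in HET and 50.0% in WT.

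Kif1a encodes the kinesin-3 motor of synaptic vesicle precursors and dense-core vesicles. The gene (ENSMUSG00000014602) lies on chromosome 1 from 93015455 to 93102039. It had the highest RPKM of the 7 genes in both libraries, though Dync1h1 had more reads in the WT library. Kif1a had 7334 reads in the HET library (7167 to 7504) and 15978 reads in the WT library (15731 to 16228). Per length this was 254 RPKM in HET (248 to 260) and 250 RPKM in WT (246 to 254). The intervals overlapped, and the log2 ratio of -0.02 (-0.06 to 0.02) left equal levels within counting error. Under scaling to total gene reads the ratio of Kif1a was 0.03, so its sign depends on the scaling.

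Kif1b encodes motors that carry mitochondria or synaptic vesicle precursors, depending on the isoform. RefSeq lists 17 transcripts for the gene (ENSMUSG00000063077), on chromosome 4 from 149176319 to 149307773, and the gene totals do not separate them. It had 1939 reads in the HET library (1854 to 2027) and 5271 reads in the WT library (5130 to 5415), or 78.8 RPKM in HET (75.3 to 82.4) and 96.8 RPKM in WT (94.2 to 99.4). Unlike Kif1a it was lower in the HET library beyond counting error, with a log2 ratio of -0.34 (-0.42 to -0.27), below the 1.5-fold limit in size. Within the pair, Kif1b made up 23.7% of the summed RPKM in the HET library and 27.9% in the WT library.

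Dync1h1 encodes the heavy chain that holds the motor domain of cytoplasmic dynein, and the mouse mutation Legs at odd angles lies in it. The gene (ENSMUSG00000018707) is on chromosome 12 from 110601395 to 110666944. With 14342 nt it had the longest gene length behind the RPKM values of the 7. It had 6694 reads in the HET library (6535 to 6856) and 16814 reads in the WT library (16561 to 17070), or 133 RPKM in HET (129 to 136) and 150 RPKM in WT (148 to 153). The difference was small but outside counting error, with a log2 ratio of -0.23 (-0.27 to -0.19).

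Dctn1 encodes the dynactin subunit known as p150-glued, which binds microtubules and dynein. RefSeq lists 20 transcripts for the gene (ENSMUSG00000031865), on chromosome 6 from 83165909 to 83200118. It had 2293 reads in the HET library (2200 to 2389) and 5032 reads in the WT library (4894 to 5173), or 152 RPKM in HET (146 to 158) and 150 RPKM in WT (146 to 155). The intervals overlapped, with a log2 ratio of -0.03 (-0.11 to 0.04). Under scaling to total gene reads its ratio was 0.02, so its sign too depends on the scaling. Dctn1 held 53.4% of the RPKM it shares with Dync1h1 in the HET library and 50.0% in the WT library. By reads, without length scaling, its share was 25.5% in the HET library and 23.0% in the WT library, so the split depends on the length scaling.

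The order of the levels, per length, differed between the libraries mainly in the place of Kif5a. In the HET library the order was Kif1a, Dctn1, Dync1h1, Kif5a, Kif1b, Kif5c and Kif5b, and in the WT library it was Kif1a, Kif5a, Dctn1, Dync1h1, Kif5c, Kif1b and Kif5b. Kif5a was thus in place 4 in the HET library and in place 2 in the WT library. These places rest on the lengths behind the RPKM values. Levels per coding length were not run, and the places could differ on that scale, which the counting intervals do not cover. In the HET library, Dync1h1 over Kif5a was 1.03 (0.984 to 1.07) and Kif1b over Kif5c was 1.00 (0.940 to 1.07), so these neighbours did not differ beyond counting error. In the WT library, Dctn1 and Dync1h1 likewise did not differ, with a ratio of 1.00 (0.969 to 1.03). The other neighbours differed beyond it in each library. In the WT library, for example, Kif1a over Kif5a was 1.15 (1.12 to 1.18) and Kif5a over Dctn1 was 1.44 (1.40 to 1.49).

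All 7 genes were among the more highly read genes of the spinal cord libraries. Kif1a ranked 197 of 12530 by RPKM in the HET library and 205 in the WT library. Kif5a ranked 459 in the HET library and 255 in the WT library. Even Kif5b, the lowest, was above 90.4% of the genes in the HET library and above 92.3% in the WT library. The 7 genes together took 0.694% of the gene reads in the HET library and 0.806% in the WT library. Without Kif5a, the other 6 took 0.612% in HET and 0.669% in WT.

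The ratios were set among those of the highest read group, whose genes had 2152 to 115809 reads. Kif5a, with 13520, was near the lower edge of the group and the other motor genes were not. The group was not narrowed to genes with the read number of each motor gene. Of the 973 genes in the highest read group, 26 had a lower ratio than Kif5a, which is 2.67%. For Kif5c 11.4% of the group had a lower ratio, for Kif1b 21.1%, for Kif5b 22.6% and for Dync1h1 33.2%. Dctn1 and Kif1a were close to the middle of the group, with 55.1% and 55.8% below them. The intervals of 5 of the 7 motor genes lay wholly below equal levels, as they did for 48.5% of the genes in the group and for 28.2% of all genes with enough reads. The median ratio of the 7 genes was -0.32, against -0.08 in the group and -0.03 over all 9726 genes.

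Genes of the highest read group differed between the libraries by more than counting error. The robust SD of their log2 ratios was 0.32, where counting error by itself would give 0.05. When the interval of each motor gene was widened by that excess, the interval of Kif5a ran from -1.42 to -0.17 and those of the other 6 genes held 0. The widened interval of Kif5a overlapped those of the other motor genes, such as that of Kif5c at -1.11 to 0.15. The widening takes its size from the spread of the group itself, so genes in the tails of the group pass it by construction. The 5th percentile of the group was -0.66, and the share of its genes that pass was not computed. The spread of the group includes whatever the genotypes and the 2 libraries contribute, which cannot be told apart with 1 library of each.

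**Figure D3:**
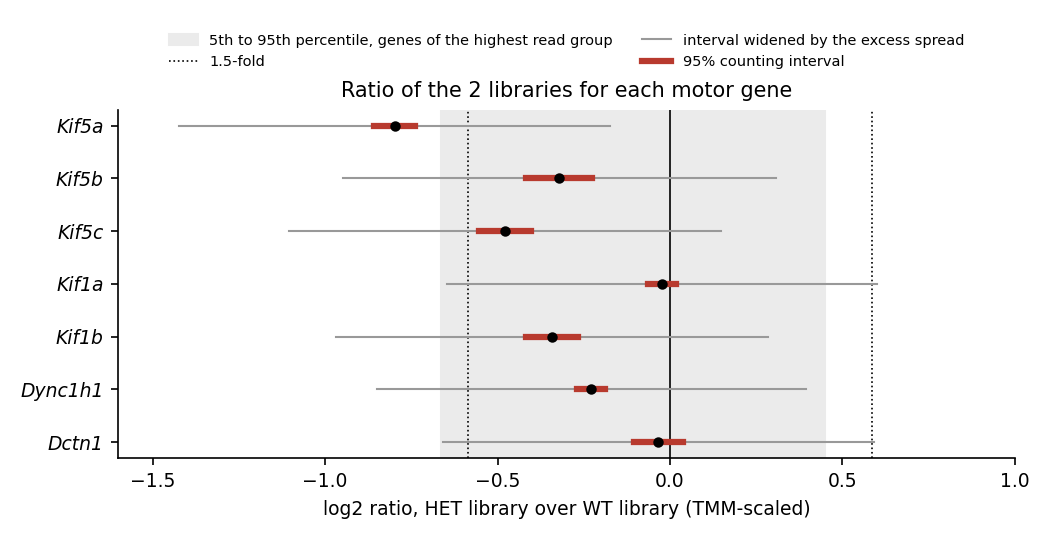
Log2 ratio of HET over WT (horizontal axis) for each motor gene (points), with the 95% counting interval (red), the interval widened by the excess spread of the highest read group (grey line), the 5th to 95th percentile of its 973 genes (shaded) and the 1.5-fold limits (dotted). Kif5a at -0.80 lies outside the shaded range and its widened interval, -1.42 to -0.17, stays below 0.

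The difference between the ratios of a pair of genes does not depend on the scaling of the libraries. Of the 21 pairs of motor genes, 18 had a difference whose counting interval excluded 0, among them all 6 pairs with Kif5a. The share among pairs of other genes was not computed. Ratios of genes in the highest read group had a robust SD of 0.32, against 0.05 from counting error. A difference beyond counting error therefore does not by itself set a pair of motor genes apart. The intervals of the pairs were not widened by that excess. Within kinesin-1, the log2 ratio of Kif5a was below that of Kif5b by a difference of -0.48 (-0.59 to -0.37) and below that of Kif5c by -0.32 (-0.42 to -0.22). Kif5b minus Kif5c was 0.16 (0.04 to 0.28). Within kinesin-3, Kif1a minus Kif1b was 0.32 (0.23 to 0.40). Against the genes of dynein and of its cofactor, Kif5a minus Dync1h1 was -0.57 (-0.64 to -0.50), and Kif5a minus Dctn1 was -0.77 (-0.86 to -0.67). Kif1a minus Dync1h1 had the opposite sign, at 0.21 (0.15 to 0.26), which is smaller than the robust SD of 0.32 for single genes. Dync1h1 minus Dctn1 was -0.19 (-0.28 to -0.11). The 3 pairs whose interval held 0 were Kif5b and Kif1b at 0.02 (-0.10 to 0.14), Kif5b and Dync1h1 at -0.09 (-0.20 to 0.01), and Kif1a and Dctn1 at 0.01 (-0.07 to 0.09). Those intervals do not show that the members of a pair changed alike.

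**Figure D4:**
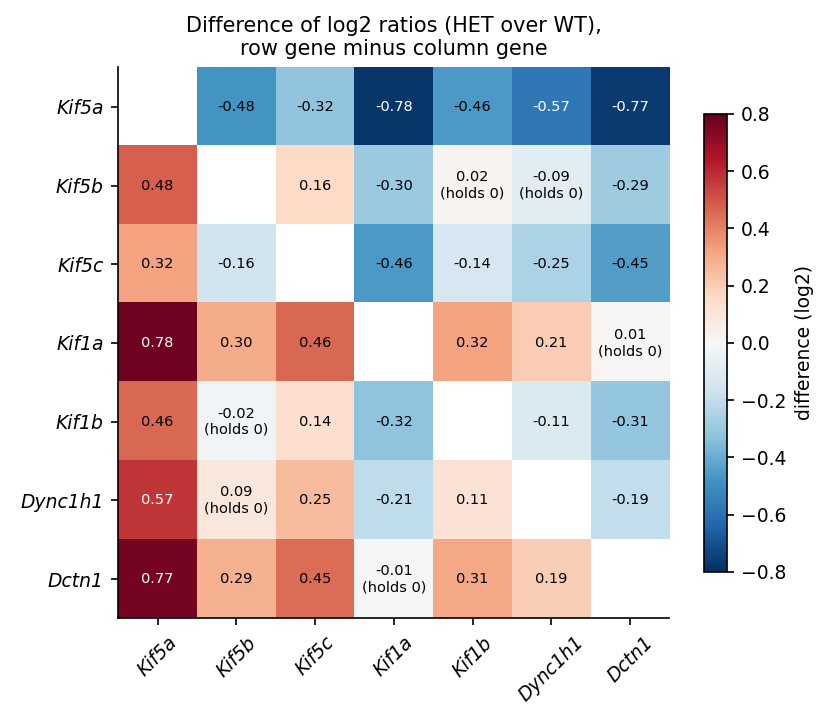
Difference of log2 ratios (HET over WT), gene of the row minus gene of the column, as numbers and on a colour scale from blue (row gene lower) to red (row gene higher). The row of Kif5a is negative in every cell, from -0.32 against Kif5c to -0.78 against Kif1a, and the 3 pairs whose counting interval holds 0 are marked.

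With 2 libraries, the likeness of 2 genes in their pattern rests on 1 ratio each. Among the genes with enough reads, 192 had a log2 ratio within 0.05 of that of Kif5a, and 868 were as close to that of Kif1a. No gene is named for likeness on that basis.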

How the data were processed

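Per the labels' protocols, tissue of 3 animals per genotype was lysed, the lysates were pooled, and RNase I fragments were size-selected and made into 1 library per genotype. The submitters' processing notes name Bowtie 1.2.2, HTSeq 0.9.1 and the build GRCm38. How they were set, which annotation was used, and whether strand or ribosomal RNA was considered is not given in the sources used here. The authors deposited counts of reads per gene, per the file headers, and these whole numbers entered the ratios unchanged. The authors also deposited RPKM, the reads per length and library total, per the file headers. Counts and RPKM together gave back 1 whole-number length per gene, the same in both libraries. No other columns were present.

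The 18 ERCC spike-ins were left out of the main scaling and used in 1 alternative scaling. Libraries were scaled with TMM (edgeR 4.0.16, R 4.3.3). Log2 ratios used a prior count of 0.5, and their intervals are exact conditional binomial (Clopper-Pearson) intervals at 95%. Intervals of read numbers are exact Poisson intervals, those of read shares exact binomial, and those of differences between ratios normal approximations from the counts. Reads may not be independent molecules, which no interval allows for. Genotype was not modelled, since a single library of each leaves no estimate of the spread between libraries. Ratios and calls were tested beforehand on simulated libraries with counting error only. The real genes spread more widely than that, so the simulation does not show how the calls behave at the real spread. Intervals were computed with scipy 1.17.1 in Python 3.11.15. DESeq2 1.42.0 gave 1 alternative scaling.

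Symbols of the 7 genes came with the definition of the group, and all 7 symbols matched the RefSeq table, which gave the coordinates. That table holds no Ensembl identifiers, so 0 identifiers matched through it, and the planned lists of other kinesins, dynein and dynactin subunits, adaptors and cell type markers were not analysed here. Protein sequences were not used here. The genes to be named were all 7 members, list genes past the calling rule, and none for likeness of pattern. The members and lists were chosen with earlier results of these data known.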

Additional observations from a re-analysis of the deposited data

Results flagged for a closer look

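The ERCC spike-ins, synthetic RNAs outside the mouse genes compared here, made up 0.650% of the listed reads in the HET library and 0.00669% in the WT library. The labels do not say whether or when they were added, and they took no part in the TMM-scaled ratios of the motor genes.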

How the results depend on the processing

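Kif5a was the one motor gene called lower, and none was called higher, under total-count, DESeq2 and upper-quartile scaling, the totals behind the RPKM values, TMM on genes with 100 or more reads, a 99% interval, the widened interval, the WT library thinned to the depth of the HET library, no read minimum and a minimum of 500 reads. Its log2 ratio lay between -0.80 and -0.74 under the scalings based on genes, and was -0.78 after thinning. The scalings based on genes move all ratios together and differed little, so they test the call of Kif5a only weakly. The read minimums could not alter the calls of these genes, as even Kif5b had 4440 reads in both libraries together. Genes in the tails of their read group pass the widened interval by construction. A looser fold limit, with the higher level at least 25% above the lower one, called 3 motor genes lower, Kif5a, Kif5c and Kif1b, and a limit of 2 called 0, by construction. The sign of Kif1a (-0.02 to 0.03) and of Dctn1 (-0.04 to 0.02) turned between those scalings. Scaling to the spike-ins shifted every gene by one common factor, put the median of all genes at -6.58 and Kif5a at -7.36, and called all 7 motor genes and all 9726 genes lower, so it says nothing about single genes. Over the 9726 genes with enough reads, 792 were higher and 1087 lower in the HET library. Scaling to total gene reads gave 952 higher and 919 lower, so the excess of lower genes did not hold there. It was smaller with the totals behind the RPKM values, at 918 higher and 945 lower. Upper-quartile scaling gave 903 and 957, TMM on genes with 100 or more reads 878 and 976, and DESeq2 789 and 1091. With the WT library thinned, 657 of 8448 genes were higher and 812 lower. Under TMM the counts were 1743 and 2146 at the looser fold limit, 166 and 267 at 2-fold, 158 and 348 with a minimum of 500 reads, and 1379 and 1353 with no minimum. Without length scaling the share of Dync1h1 in its pair with Dctn1 was 74.5% in the HET library and 77.0% in the WT library. Levels per coding length and the lists of other transport genes were not run. No paired analysis was possible because each genotype has 1 library, and no replicate could be left out for the same reason.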
